A study of Homo sapiens with 16 samples.

Results

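The SNAI, TWIST and ZEB genes and PRRX1, transcription factors known as drivers of the epithelial-mesenchymal transition (EMT), were followed in BRAF inhibitor-resistant (BRAFi-R) melanoma cells. The 8 members (SNAI1, SNAI2, SNAI3, TWIST1, TWIST2, ZEB1, ZEB2 and PRRX1) were taken by gene symbol, and all 8 were found among the 34228 genes of the count table. The cells were 451Lu-R and 1205Lu-R, melanoma lines made resistant by growth in rising doses of the BRAF inhibitor PLX4032 and kept in it afterwards, each line standing for itself alone. Each line received 2.5 μM corin, an inhibitor of the LSD1 and HDAC activities of the CoREST repressor complex, or its vehicle DMSO for 24 h, and polyA RNA was sequenced in 2 libraries per group (8 libraries in 4 groups). The 8 further samples of the series, treated with PLX4032 with or without corin, were not used here because no counts of theirs were at hand. The study describes the DMSO libraries as having neither PLX4032 nor corin.

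The SNAI proteins are zinc finger repressors whose N-terminal SNAG domain binds LSD1 and so recruits CoREST. The ZEB proteins carry clusters of zinc fingers around a homeodomain and bind the E-box CAGGTG, which the SNAI proteins also recognize, for example in the promoter of the cell adhesion gene CDH1. The TWIST proteins are basic helix-loop-helix (bHLH) factors that pair with the class I bHLH proteins TCF3, TCF4 and TCF12, and PRRX1 is a paired-type homeodomain factor of mesenchyme. Unlike in carcinoma, members of the family replace each other in melanoma: SNAI2 and ZEB2 are known from melanocytes and differentiated melanoma cells, and ZEB1 and TWIST1 from dedifferentiated, invasive cells.

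Promoter sequences are shown for the 4 members that RefSeq's promoter table holds, which include the ZEB1 and ZEB2 pair, whose members moved in opposite directions in 451Lu-R, and PRRX1, which fell in both lines. Each window holds the 250 bases before the transcription start and the 50 bases from it on, read 5′ to 3′ on the strand of the gene (GRCh38.p14), and capitals mark CAGGTG or its reverse complement CACCTG. The windows lie at chr10:31318966-31319265 on the plus strand for ZEB1, chr2:144520070-144520369 on the minus strand for ZEB2, chr1:170663881-170664180 on the plus strand for PRRX1 and chr2:238847835-238848134 on the plus strand for TWIST2. For ZEB1, which has 7 windows in the table, the window at the canonical start in GENCODE was taken.
ZEB1: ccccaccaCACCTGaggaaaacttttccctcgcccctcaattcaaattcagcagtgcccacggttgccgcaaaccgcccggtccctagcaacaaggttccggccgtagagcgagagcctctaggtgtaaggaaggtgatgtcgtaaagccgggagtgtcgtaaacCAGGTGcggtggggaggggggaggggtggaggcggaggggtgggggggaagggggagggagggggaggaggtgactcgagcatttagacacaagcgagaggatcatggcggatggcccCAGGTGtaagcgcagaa
ZEB2: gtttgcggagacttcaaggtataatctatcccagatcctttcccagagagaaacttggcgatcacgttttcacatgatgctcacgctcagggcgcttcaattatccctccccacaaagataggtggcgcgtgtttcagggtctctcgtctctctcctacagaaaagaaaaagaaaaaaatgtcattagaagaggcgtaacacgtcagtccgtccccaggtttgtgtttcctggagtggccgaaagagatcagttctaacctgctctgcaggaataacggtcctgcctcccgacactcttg
PRRX1: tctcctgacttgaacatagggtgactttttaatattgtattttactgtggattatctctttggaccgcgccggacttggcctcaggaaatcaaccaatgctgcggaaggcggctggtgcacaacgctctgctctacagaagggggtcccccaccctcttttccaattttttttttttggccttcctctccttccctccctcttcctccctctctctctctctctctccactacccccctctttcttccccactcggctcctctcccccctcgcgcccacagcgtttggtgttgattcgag
TWIST2: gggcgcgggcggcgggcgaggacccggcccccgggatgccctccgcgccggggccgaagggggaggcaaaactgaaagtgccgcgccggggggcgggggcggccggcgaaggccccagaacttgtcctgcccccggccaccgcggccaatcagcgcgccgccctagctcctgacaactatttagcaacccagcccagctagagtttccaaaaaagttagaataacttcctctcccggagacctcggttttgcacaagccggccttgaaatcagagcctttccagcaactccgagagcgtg
The ZEB1 window held 3 matches to the E-box on either strand, beginning at positions -242, -85 and 33, counted from 0 at the first transcribed base. The ZEB2, PRRX1 and TWIST2 windows held 0. Of 34943 windows of this length in the table, 20.6% held at least 1 such match. The looser E-box CANNTG, which contains CAGGTG, was matched 3 times in the ZEB1 window (at the same places), 1 time in the ZEB2 window (at -180) and 0 times in the other 2, against 68.7% of all windows with a match. The AP-1 motif TGANTCA was matched in none of the 4 windows and in 7.72% of all windows. GC content was 61.7% for ZEB1, 49.0% for ZEB2, 53.0% for PRRX1 and 66.7% for TWIST2.

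The libraries held between 9516687 and 11797788 estimated counts each. Levels are given as CPM, the counts of a gene per 1000000 counts of the library, and differences as log2 fold changes from the quasi-likelihood test of edgeR (2-sided, TMM-scaled), with the standard error (SE) and the false discovery rate (FDR) over all genes tested. The labels do not say whether the 2 libraries of a group came from separate cultures, so the tests measure only the spread between these libraries, which lay close to counting error. Melanocyte lineage markers set the lines apart: 9 of 9 were at 1 CPM or more in 451Lu-R with DMSO and with corin (summed 11800 to 13800 CPM), but 2 of 9 in 1205Lu-R with DMSO and 4 of 9 with corin (33.3 to 46.1 CPM), where SOX10 and TYR were at 0 counts in all 4 libraries. The 1205Lu-R cells therefore lacked defining markers of their labelled lineage. Leukocyte markers summed to at most 0.763 CPM in any library. The 3 endothelial markers in the table summed to 1.35 to 1.47 CPM with DMSO and 8.39 to 9.1 CPM with corin in 451Lu-R. The sums in 1205Lu-R were 10.7 to 10.8 and 24.0 to 27.6 CPM. There VWF rose (1.33 to 18.4 CPM on average), and PECAM1 did not (9.44 and 7.34 CPM).

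On GRCh38, SNAI1 lies on chromosome 20 (49982980 to 49988886, plus strand), SNAI2 on chromosome 8 (48917598 to 48921740, minus strand) and SNAI3 on chromosome 16 (88677688 to 88686507, minus strand). ZEB1 lies on chromosome 10 (31318495 to 31529814, plus strand) and ZEB2 on chromosome 2 (144364364 to 144521057, minus strand). TWIST1 lies on chromosome 7 (19020991 to 19117636, minus strand), TWIST2 on chromosome 2 (238848032 to 238910534, plus strand) and PRRX1 on chromosome 1 (170662728 to 170739421, plus strand). Exons of SNAI2, SNAI3, TWIST1, ZEB1 and ZEB2 overlap an RNA of the opposite strand, over 121, 177, 141, 396 and 1299 bases. Whether counting used the strand is not given in the sources used here, so reads in those stretches may belong to either gene.

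With corin, 4 members rose and 3 fell among the 7 tested in 451Lu-R, where 79.9% of all tested genes were called at an FDR under 0.05 (41.3% higher, 38.6% lower). In 1205Lu-R, 4 rose, 2 fell and 2 were not called among the 8 tested, against 78.3% of all genes (40.4% higher, 37.8% lower). Since most genes were called, a call alone does not single out a member, and the size of each change carries more. At a fold change of at least 2, 6 of 7 members were called in 451Lu-R (35.6% of all genes), 3 higher and 3 lower (22.2% and 13.3%). In 1205Lu-R 4 of 8 were called (31.8%), 3 higher and 1 lower (22.0% and 9.8%). At 4-fold and an FDR under 0.001, 3 members were called in each line, against 15.1% of all 451Lu-R genes and 12.8% of all 1205Lu-R genes. These were SNAI1, SNAI3 and PRRX1. SNAI3 in both lines and PRRX1 in 451Lu-R passed the filter through 1 group alone, which fixed their direction. For these the calls counted here are no support. Corin and DMSO libraries did not overlap for 7 of the 7 members tested in 451Lu-R (89.2% of all genes) and for 6 of 8 in 1205Lu-R (88.1%). SNAI1 and SNAI3 were higher and PRRX1 was lower with corin in both lines, while SNAI2 and ZEB2 had opposite changes, down in 451Lu-R and up in 1205Lu-R. TWIST1 and ZEB1 rose in 451Lu-R and were not called in 1205Lu-R, and TWIST2, counted at the floor in 451Lu-R, fell in 1205Lu-R. In bulk RNA, fewer cells expressing a gene and less RNA per cell cannot be told apart.

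**Figure D1:**
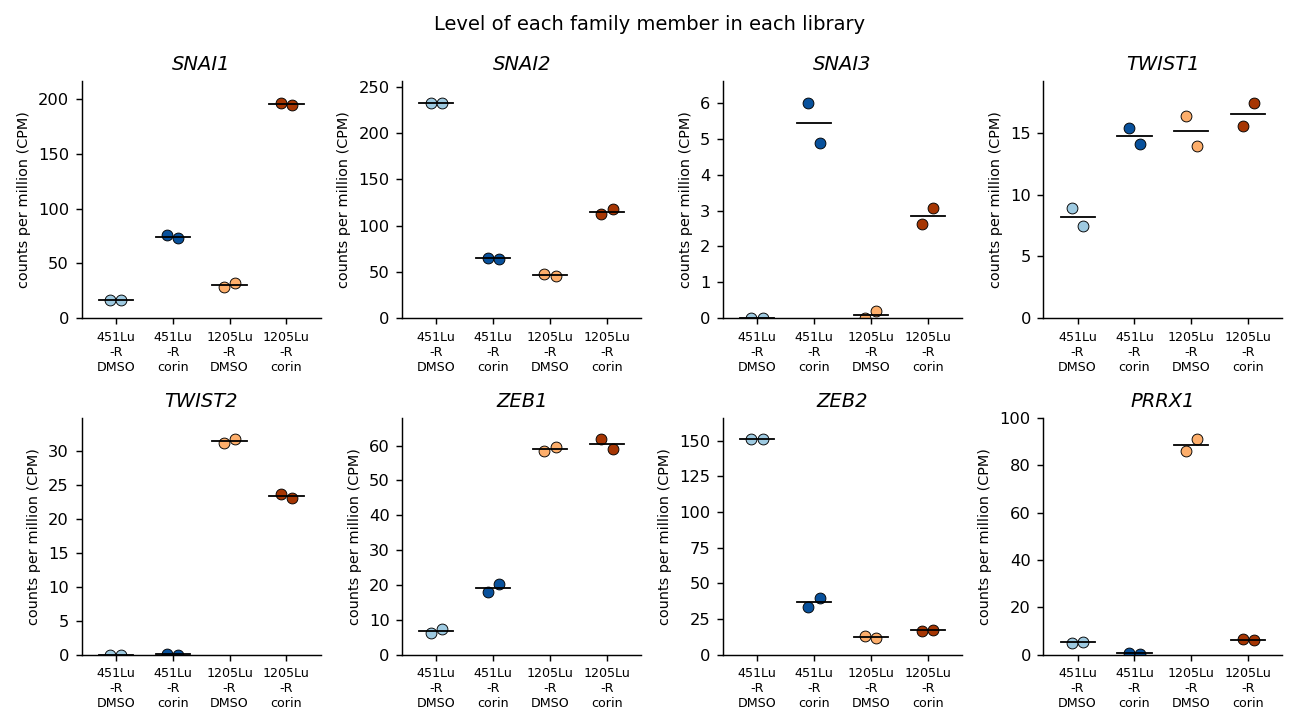
Level of each member in CPM (y axis, each panel with its own scale from 0) in the 4 groups (x axis). Points are the 2 libraries of a group and lines their mean. SNAI1 was highest in 1205Lu-R with corin (197 and 195 CPM), SNAI2 and ZEB2 in 451Lu-R with DMSO, and PRRX1 and TWIST2 in 1205Lu-R with DMSO.

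SNAI1, which encodes Snail, had 16.5 and 16.1 CPM in the DMSO libraries of 451Lu-R and 75.9 and 73.0 CPM in the corin libraries. In 1205Lu-R it had 28.2 and 31.6 CPM with DMSO and 197 and 195 CPM with corin. In both lines every corin library lay above every DMSO library, and the DMSO libraries of 1205Lu-R lay above those of 451Lu-R. The change was 4.88-fold in 451Lu-R (log2 2.29, SE 0.076, edgeR FDR = 4.66e-16) and 6.22-fold in 1205Lu-R (log2 2.64, SE 0.05, edgeR FDR = 2.06e-21). The 2 responses differed by 0.31 on the log2 scale (edgeR interaction FDR = 0.0127), a difference that lost its call without DMSO replicate 1 of 451Lu-R (FDR = 0.0965) or of 1205Lu-R (FDR = 0.12).

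SNAI2, which encodes Slug, a factor of the neural crest and of melanocytes, moved in opposite directions. In the DMSO libraries of 451Lu-R its level was 233 and 232 CPM, and in the corin libraries 64.7 and 64.2 CPM. In 1205Lu-R it stood at 47.3 and 45.3 CPM with DMSO and at 112 and 118 CPM with corin. The highest level was thus that of DMSO-treated 451Lu-R and the lowest that of DMSO-treated 1205Lu-R, with the corin libraries of both lines between them. SNAI2 fell 3.36-fold in 451Lu-R (log2 -1.75, SE 0.038, edgeR FDR = 7.23e-19) and rose 2.36-fold in 1205Lu-R (log2 1.24, SE 0.05, edgeR FDR = 1.15e-15). The interaction was 2.95 on the log2 scale (SE 0.064, edgeR FDR = 2.95e-19).

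SNAI3, a zinc finger relative of SNAI1 and SNAI2, was close to absent without corin, with 0 and 0 counts in 451Lu-R and 0 and 2 counts in 1205Lu-R. With corin it reached 71 and 49 counts (6.02 and 4.9 CPM) in 451Lu-R and 25 and 34 counts (2.63 and 3.06 CPM) in 1205Lu-R. Every corin library lay above every DMSO library of its line, at low levels. SNAI3 passed the filter through its corin libraries alone, so it had to be higher there and its FDRs add no support. Set against a floor of 3 counts per library, SNAI3 was at least 18.6-fold higher with corin in 451Lu-R (edgeR FDR = 1.26e-09). In 1205Lu-R the ratio of its summed counts per library total was 31.0 (95% exact interval for counting error 8.21 to 262, edgeR FDR = 5.73e-07). The interaction was not called (edgeR FDR = 0.0986, and FDR = 0.0404 without DMSO replicate 1 of 1205Lu-R). SNAI3-AS1, which overlaps SNAI3 on the opposite strand, rose from 39 and 41 counts to 91 and 90 counts in 451Lu-R (log2 1.19, edgeR FDR = 1.19e-05). In 1205Lu-R it went from 14 and 15 to 24 and 27 counts (log2 0.81, edgeR FDR = 0.0364), and this call was lost without any of the 4 libraries (FDR from 0.106 to 0.17) and with DESeq2 (FDR = 0.276).

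ZEB1, the ZEB gene of dedifferentiated cells, had 451Lu-R levels of 6.15 and 7.45 CPM with DMSO and 17.9 and 20.4 CPM with corin. Its 1205Lu-R levels were 58.5 and 59.7 CPM with DMSO and 61.8 and 59.0 CPM with corin. The 451Lu-R groups did not overlap, whereas the 1205Lu-R groups did, all 4 libraries lying well above every 451Lu-R library. ZEB1 rose 3.02-fold in 451Lu-R (log2 1.59, SE 0.14, edgeR FDR = 1.84e-09). Its change in 1205Lu-R was -0.04 on the log2 scale (95% interval -0.15 to 0.07, edgeR FDR = 0.488), and 0.03 without TMM scaling. The responses differed by -1.67 (edgeR interaction FDR = 1.42e-09).

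ZEB2, the ZEB gene of differentiated melanocytic cells, went the other way in 451Lu-R. Both DMSO libraries of that line had 151 CPM, and the corin libraries 33.3 and 40.0 CPM. The 1205Lu-R levels were 13.3 and 11.6 CPM with DMSO and 16.5 and 17.4 CPM with corin. The corin libraries were below DMSO in 451Lu-R and above it in 1205Lu-R, where all levels were low. ZEB2 fell 3.87-fold in 451Lu-R (log2 -1.95, SE 0.059, edgeR FDR = 1.06e-16). The rise in 1205Lu-R was 1.29-fold (log2 0.37, SE 0.12, edgeR FDR = 0.00708), and its call was lost with DESeq2 (FDR = 0.137) and without DMSO replicate 2 of 1205Lu-R (FDR = 0.0857). The interaction of 2.29 was called (edgeR FDR = 6.13e-12). The antisense RNA ZEB2-AS1 had between 0 and 5 counts in every library, and ZEB1-AS1, with 16 to 61 counts, was not called in either line (log2 0.54, FDR = 0.129, and log2 0.23, FDR = 0.337, edgeR).

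TWIST1 was counted in 451Lu-R at 8.9 and 7.45 CPM with DMSO and at 15.4 and 14.1 CPM with corin. Its 1205Lu-R levels were 16.4 and 14.0 CPM with DMSO, then 15.6 and 17.5 CPM with corin. Only the DMSO libraries of 451Lu-R stood apart, below the other 6. TWIST1 rose 1.93-fold in 451Lu-R (log2 0.95, SE 0.14, edgeR FDR = 2.75e-06). In 1205Lu-R the change was 0.05 on the log2 scale (95% interval -0.18 to 0.28, edgeR FDR = 0.71). The responses differed by -0.94 (edgeR interaction FDR = 2.01e-04).

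TWIST2, the paralog of TWIST1, was counted in 1205Lu-R almost alone. Its counts were 0, 0, 1 and 0 over the 4 libraries of 451Lu-R, so it was not tested there. In 1205Lu-R it had 31.2 and 31.7 CPM with DMSO and 23.7 and 23.1 CPM with corin. Both corin libraries of 1205Lu-R lay below both DMSO libraries. TWIST2 fell 1.41-fold in 1205Lu-R (log2 -0.50, SE 0.083, edgeR FDR = 1.16e-05).

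PRRX1 fell most of the members in both lines. In 451Lu-R the DMSO libraries had 4.95 and 5.38 CPM, against 0.763 and 0.3 CPM (9 and 3 counts) with corin. In 1205Lu-R it dropped from 86.0 and 91.0 CPM with DMSO to 6.41 and 6.12 CPM with corin. The groups did not overlap in either line, and corin-treated 1205Lu-R cells held PRRX1 slightly above the level of DMSO-treated 451Lu-R cells. The fall was 8.61-fold in 451Lu-R (log2 -3.11, SE 0.36, edgeR FDR = 1.77e-07) and 14.9-fold in 1205Lu-R (log2 -3.89, SE 0.087, edgeR FDR = 3.49e-20). In 451Lu-R PRRX1 passed the filter through its DMSO libraries alone, so it had to be lower with corin there. The responses were not shown to differ (-0.83, 95% interval -1.71 to 0.05, edgeR interaction FDR = 0.164), and without corin replicate 1 of 451Lu-R the difference was 0.04. At the strict threshold of 4-fold and an FDR under 0.001, PRRX1 was the member called lower in each line, against 2.72% of all genes in 451Lu-R and 1.43% in 1205Lu-R.

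**Figure D2:**
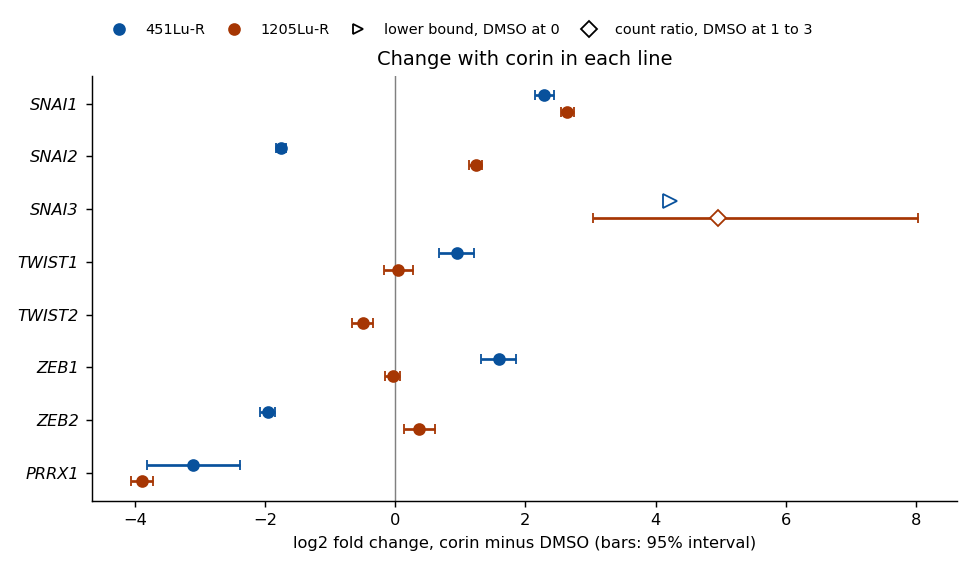
Log2 fold change of each member with corin (x axis) in 451Lu-R (blue) and 1205Lu-R (brown). Dots carry 95% intervals, the open triangle is a lower bound for SNAI3 with DMSO libraries at 0, and the open diamond is its count ratio in 1205Lu-R with a counting interval (31.0). SNAI2 and ZEB2 lay on opposite sides of 0 in the 2 lines (-1.75 and 1.24, -1.95 and 0.37), and TWIST2 was not tested in 451Lu-R.

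The response differed between the lines for 5 of the 8 members (edgeR interaction, FDR under 0.05), while 49.7% of all genes tested differed. Of these, 3 members differed at least 2-fold (SNAI2, ZEB2 and ZEB1), against 18.8% of all genes, and 2 (SNAI2 and ZEB2) at 4-fold and an FDR under 0.001, against 5.56%. For all 3 the difference between the lines was smaller with corin than with DMSO, which restates the interaction, since both rest on the same libraries. Between the DMSO-treated lines 7 of 8 members differed (75.4% of all genes), 5 higher and 2 lower in 1205Lu-R (38.2% and 37.2%). With corin again 7 of 8 differed (76.9%), 5 higher and 2 lower (38.0% and 39.0%). Of these 2, PRRX1 and TWIST2, did at 4-fold and an FDR under 0.001 (16.4%). TWIST2 passed the filter of the joint fit through its 1205Lu-R libraries alone, so it had to be higher there. For TWIST2 the calls with DMSO and with corin counted here are no support. SNAI2 was 4.6-fold lower in 1205Lu-R than in 451Lu-R with DMSO (log2 -2.20) and 1.68-fold higher with corin (log2 0.75). For ZEB1 the difference shrank from 9.5-fold higher in 1205Lu-R to 2.98-fold higher. For ZEB2 it shrank from 11.1-fold lower to 2.28-fold lower. TWIST1 differed 2.02-fold with DMSO (edgeR FDR = 8.14e-07) and by 0.08 on the log2 scale with corin (95% interval -0.16 to 0.31, edgeR FDR = 0.557). PRRX1 kept a large difference (18.7-fold with DMSO and 10.5-fold with corin), and TWIST2 was at least 107-fold higher in 1205Lu-R with DMSO. With corin TWIST2 had 226 and 257 counts in 1205Lu-R against 1 and 0 in 451Lu-R, and the exact 95% counting interval of the ratio began at 91.2. SNAI1 was 1.99-fold higher in 1205Lu-R with DMSO and 2.47-fold higher with corin. SNAI3 was at the floor in both lines with DMSO and 2.04-fold lower in 1205Lu-R with corin (edgeR FDR = 0.00254), a call lost with DESeq2 (FDR = 0.0813) and without corin replicate 1 of 451Lu-R (FDR = 0.0563).

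**Figure D3:**
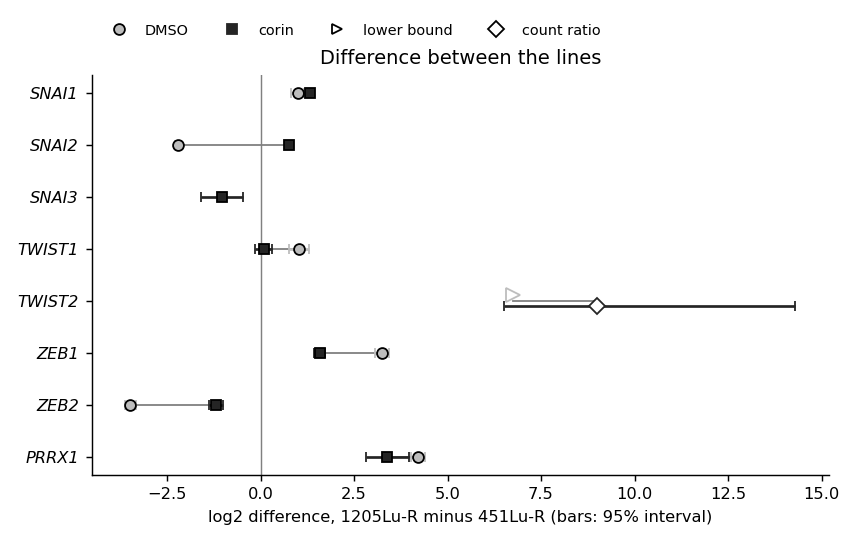
Log2 difference between the lines, 1205Lu-R minus 451Lu-R (x axis), for each member with DMSO (grey dots) and with corin (black squares), with 95% intervals, a triangle for a lower bound and a diamond for a count ratio with its counting interval. The differences of SNAI2, ZEB1 and ZEB2 moved toward or across 0 with corin (from -2.20 to 0.75, 3.25 to 1.58 and -3.48 to -1.19), and those of PRRX1 (4.22 and 3.39) stayed far from it. SNAI3 with DMSO is not drawn because both lines were at the floor.

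Levels of different genes were compared per kilobase of exons (CPM per kb), which corrects for their unequal length. In DMSO-treated 451Lu-R cells, SNAI2 made up 77.2% of the summed CPM per kb of the 8 members, followed by SNAI1 (10.4%), ZEB2 (6.3%) and TWIST1 (4.46%). With corin the order was SNAI1 (56.3%), SNAI2 (25.3%), TWIST1 (9.53%) and SNAI3 (4.04%). With the longest transcript as the length, ZEB2 came before SNAI1 with DMSO and before SNAI3 with corin, and the leading member of each group was the same. The 2 libraries of neighbours in these orders did not overlap, except for SNAI3 and TWIST2 with DMSO and PRRX1 and TWIST2 with corin, all near 0. The leading member was therefore a different one before and after treatment.

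DMSO-treated 1205Lu-R cells had no single leading member. SNAI1 (24.3%), TWIST2 (20.5%), SNAI2 (19.6%), PRRX1 (14.9%), TWIST1 (10.6%) and ZEB1 (9.47%) shared most of the sum, and this order changed when the longest transcript was used as the length (TWIST2, PRRX1 and SNAI1 then came first). With corin, SNAI1 reached 64.1% and SNAI2 19.5%. The sum over the family was 91.7 CPM per kb in DMSO-treated and 77.5 in corin-treated 451Lu-R cells. The 1205Lu-R sums were 72.1 and 179 CPM per kb, the added part being mostly SNAI1 (17.5 to 115 CPM per kb) and SNAI2 (14.1 to 35.0 CPM per kb).

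The balance within each pair of relatives was expressed as a log2 ratio per kb in each library, and described without a test, since 2 against 2 libraries cannot reach a 2-sided permutation p below 0.333. The SNAI1 to SNAI2 ratio in 451Lu-R was -2.87 and -2.89 with DMSO, and corin brought it to 1.17 and 1.13, a 16.4-fold change. The DMSO libraries of 1205Lu-R gave 0.20 and 0.43, the corin libraries 1.76 and 1.67, a 2.64-fold change. SNAI1 thus gained on SNAI2 in both lines. Per kb the mean ratio crossed 0 in 451Lu-R, and without the correction for length it did in both (-3.83 to 0.21, and -0.63 to 0.77 in 1205Lu-R). The ZEB1 to ZEB2 ratio in 451Lu-R was -3.01 and -2.74 in DMSO libraries, 0.70 and 0.63 in corin libraries, an 11.6-fold change. The change does not depend on gene length, but the place of 0 does: with the longest transcript as length the mean with corin was -0.32. In 1205Lu-R the ZEB1 to ZEB2 ratio stayed in favour of ZEB1, at 3.73 and 3.96 in DMSO libraries, 3.50 and 3.36 in corin libraries. The TWIST1 to TWIST2 ratio in 1205Lu-R was -0.83 and -1.08 in DMSO libraries, -0.52 and -0.30 in corin libraries. In 451Lu-R TWIST2 was at 0 with DMSO, so that TWIST1 was at least 29.8-fold above it per kb. With corin TWIST1 had 323 counts against 1 of TWIST2, and the exact 95% counting interval of their ratio per kb began at 61.4.

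**Figure D4:**
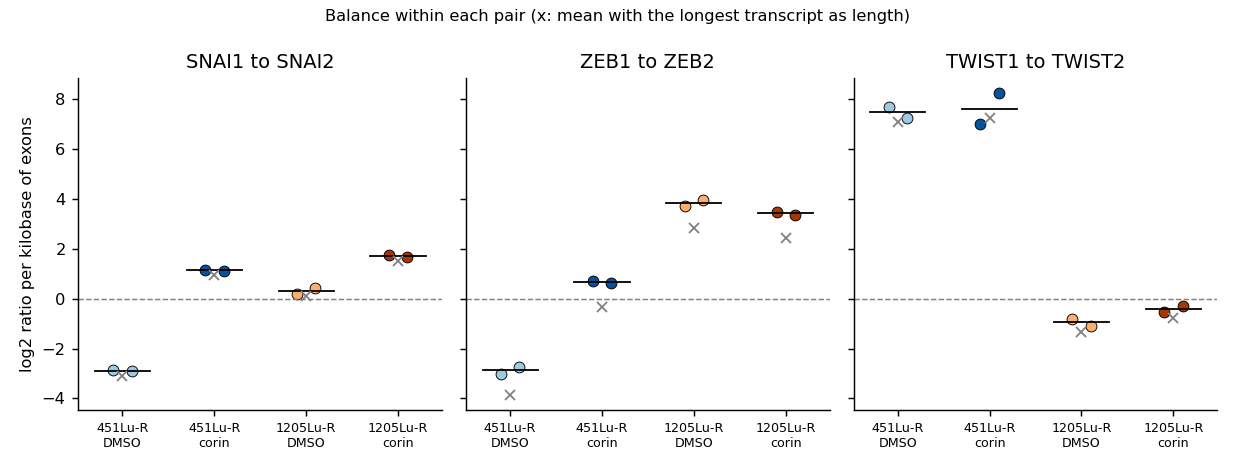
Log2 ratio per kilobase of exons (y axis, shared) within 3 pairs of relatives in the 4 groups. Points are libraries, lines are means and grey crosses are means with the longest transcript as length. In 451Lu-R the SNAI1 to SNAI2 mean went from -2.88 to 1.15 and the ZEB1 to ZEB2 mean from -2.87 to 0.66, and the TWIST1 to TWIST2 points of that line depend on the pseudocount of 0.5 counts.

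The genes closest to a member in pattern were those with the smallest root mean square (RMS) difference of log2(CPM + 0.5), centred on each gene's mean, over the 8 libraries, among the 11362 genes that averaged 5 CPM or more. Libraries of a group share line and treatment, so such likeness rests on 4 group levels. For SNAI1 they were FSTL3 (RMS 0.11), JUNB (0.12) and ZSWIM6 (0.17). JUNB, an AP-1 subunit, had 20.3 and 83.9 CPM in 451Lu-R without and with corin, and 30.8 and 198 CPM in 1205Lu-R. For SNAI2 they were MRAS (0.19), TRAK1 (0.25) and CHEK2 (0.29), and for SNAI3 ARMH4 (0.24), RALGPS1 (0.25) and ASMTL (0.25). ZEB1 was closest to ECE1 (0.10), the receptor tyrosine kinase gene FGFR1 (0.12) and SKIL (0.14), and ZEB2 to KIN (0.17), ST3GAL6 (0.18) and NARS2 (0.22). TWIST1 was closest to TMEM65 (0.07), SGPL1 (0.09) and GOLIM4 (0.11), and TWIST2 to CYB561 (0.21), PPIAP46 (0.23) and KIAA1755 (0.23). SNAI3 with DMSO and TWIST2 in 451Lu-R were at or near 0, so their neighbours depend on the 0.5 added to the CPM. PRRX1 had no near neighbour, the closest being CCDC9B (0.63), APOL6 (0.67) and GPX8 (0.68).

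Among the classical targets, CDH1, the epithelial cadherin gene that SNAI and ZEB proteins repress, was not tested in either line. In 451Lu-R the DMSO libraries held 4 and 1 reads of it and the corin libraries 8 and 2, and in 1205Lu-R the DMSO libraries held 0 and 0 and the corin libraries 1 and 3, so no change was detectable at this depth. CDH2, the mesenchymal cadherin, rose 3.06-fold in 451Lu-R (40.2 and 46.0 to 120 and 126 CPM) and 2.04-fold in 1205Lu-R (102 and 101 to 217 and 218 CPM), with edgeR FDR = 1.84e-15 and 1.09e-16. FN1, which encodes fibronectin, rose 2.86-fold in 451Lu-R (696 and 697 to 1860 and 1860 CPM) and fell 1.21-fold in 1205Lu-R (5490 and 5630 to 4810 and 4850 CPM). The responses of FN1 differed by -1.83 on the log2 scale (edgeR interaction FDR = 2.73e-23). VIM, which encodes vimentin, rose 1.23-fold in 451Lu-R (edgeR FDR = 4.48e-13), while its change of 0.02 on the log2 scale in 1205Lu-R was -0.0044 with DESeq2 (FDR = 0.737).

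The 43 junction and epithelial genes listed can be judged only in part, since about as many were too low to be tested as passed the filter. Of these, 18 of 21 tested rose and 1 fell in 451Lu-R (85.7% and 4.76%, against 41.3% and 38.6% of all genes). The median log2 fold change was 3.38 (2.44 with genes at the floor set to their bound) against 0.03 over all genes. In 1205Lu-R 16 of 20 rose and 2 fell (80.0% and 10.0%, against 40.4% and 37.8%), with a median of 1.58. TJP3, of the tight junction, was at least 113-fold higher in 451Lu-R and at least 34.8-fold higher in 1205Lu-R, and CGN, which encodes cingulin, rose 8.1-fold and 13.7-fold. In 451Lu-R, CLDN1 rose 44.6-fold and PKP2 was at least 61.7-fold higher. In 1205Lu-R, MAL2 had 0 and 1 counts in DMSO libraries against 100 and 128 in corin libraries, and F11R had 3 and 0 against 35 and 36. The genes that fell, named after their values were seen, were ESRP1, a splicing regulator of epithelial cells, in 451Lu-R (log2 -3.10) and LSR (-1.83) and PKP3 (-0.94) in 1205Lu-R. These counts are no support for a change of the list, because a gene that passed through its corin libraries alone had to be higher there. The 4 keratinocyte markers in the table summed to 21.0 to 21.3 CPM with DMSO and 19.3 to 23.6 CPM with corin in 451Lu-R, and to 32.4 to 32.5 and 31.3 to 31.8 CPM in 1205Lu-R. Most of each sum was KRT10, and the markers did not move together. In 451Lu-R KRT10 went from 20.8 to 13.9 CPM on average and KRT14 from 0.345 to 4.57 CPM. TP63 went from 0 and 0 counts to 38 and 26 in 451Lu-R, and to 7 and 4 in 1205Lu-R.

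Of the mesenchymal genes tested, 23 of 30 rose and 6 fell in 451Lu-R (76.7% rose, against 41.3% of all genes), with a median of 1.37. In 1205Lu-R 16 of 34 rose and 14 fell (47.1% and 41.2%, against 40.4% and 37.8%), with a median of 0.01. At 2-fold, 18 of the 30 were up and 4 down in 451Lu-R, against 22.2% and 13.3% of all genes. In 1205Lu-R 9 of the 34 were up and 2 down, against 22.0% and 9.8%. The difference between the lines over the list was not tested. COL1A1, a collagen gene of the matrix, rose 66.9-fold in 451Lu-R (0.637 to 40.3 CPM on average) and 7.25-fold in 1205Lu-R (1.15 to 8.85 CPM). CCN2, a matricellular gene, rose 3.71-fold in 451Lu-R and 6.53-fold in 1205Lu-R. FBN1, the fibrillin gene, rose 28.4-fold in 451Lu-R (0.229 to 6.75 CPM) and stood at 167 and 189 CPM in 1205Lu-R (log2 0.11, edgeR FDR = 0.00713, and FDR = 0.217 with DESeq2). CNN1 rose from 0 and 1 counts to 25 and 15 in 451Lu-R and 4.21-fold in 1205Lu-R, and DCN rose from 1 and 2 counts to 47 and 33 in 451Lu-R. In 451Lu-R COL1A1, FBN1, CNN1 and DCN passed the filter through their corin libraries alone, so they had to be higher there. The same holds for CNN1 in 1205Lu-R. The summed level of 6 fibroblast markers, all of which are also on the mesenchymal list, changed too, from 50.7 to 54.1 CPM up to 154 to 157 CPM in 451Lu-R and from 334 to 339 CPM down to 186 to 189 CPM in 1205Lu-R. In 1205Lu-R the markers did not move together: PDGFRA (196 to 93.7 CPM on average) and PDGFRB (140 to 84.9 CPM) fell, and COL1A1 rose. COL3A1 was at 0 counts in all 451Lu-R libraries and LUM in all 1205Lu-R libraries, and the part of other cell types in these changes was not tested.

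The class I bHLH partners of TWIST did not share a direction, and the ID inhibitors, which sequester those partners, did. ID1, ID2, ID3 and ID4 rose in both lines, with 451Lu-R log2 changes of 3.01, 2.29, 0.78 and 1.44. In 1205Lu-R the log2 changes of ID1, ID2 and ID3 were 2.86, 2.69 and 0.36, and ID4 went from 3 and 3 counts to 19 and 31 (count ratio 8.76, exact 95% counting interval 3.75 to 25.0). ID1 went from 17.2 to 130 CPM in 451Lu-R and from 34.4 to 264 CPM in 1205Lu-R on average. The partners TCF3 (log2 -0.56 and -0.94) and TCF12 (-0.26 and -0.83) fell in both lines. TCF4 went up in 451Lu-R (log2 2.28, 1.56 to 7.09 CPM) and down in 1205Lu-R (-0.37, 43.8 to 35.6 CPM), and the responses differed by -2.68 (edgeR interaction FDR = 2.31e-09). In all, 451Lu-R showed 5 rises and 2 falls among the 7 genes (71.4% and 28.6%, against 41.3% and 38.6% of all genes, median log2 change 1.44). In 1205Lu-R there were 4 rises and 3 falls (57.1% and 42.9%, against 40.4% and 37.8%, median 0.36).

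Of 23 corepressor genes whose products SNAI or ZEB proteins bind, 451Lu-R raised 11 and lowered 10 (47.8% and 43.5%, near the 41.3% and 38.6% of all genes, median -0.07). In 1205Lu-R 6 were raised and 13 lowered (26.1% and 56.5%, against 40.4% and 37.8%, median -0.24). At 2-fold the counts of the 23 were 2 and 1 in 451Lu-R (22.2% and 13.3% of all genes), and in 1205Lu-R 1 and 3 (22.0% and 9.8%). The subunits that corin targets moved little: KDM1A, which encodes LSD1, rose 1.30-fold and 1.38-fold, and HDAC2 1.28-fold and 1.27-fold, while HDAC1 rose 1.45-fold in 451Lu-R and was not called in 1205Lu-R (log2 -0.09, edgeR FDR = 0.0572, and called lower in 5 of the alternatives). The scaffold gene RCOR1 rose by 0.82 and 0.97 on the log2 scale, and its relative RCOR2 by 5.29 (0.339 to 12.9 CPM) and 3.46 (1.24 to 14.6 CPM). In 451Lu-R RCOR2 had 4 and 3 counts with DMSO and passed the filter through its corin libraries alone. It had to be higher there. SUV39H1, a histone H3K9 methyltransferase, fell 4.44-fold and 2.69-fold, and NCOR1 fell 1.82-fold and 2.09-fold. The LIM proteins AJUBA (log2 0.42 and -1.44) and WTIP (1.36 and -0.59) were higher with corin in 451Lu-R but lower in 1205Lu-R, although the rise of AJUBA lost its call with DESeq2 (FDR = 0.0607) and without corin replicate 2 of 451Lu-R (FDR = 0.0792). LMO4 rose in 451Lu-R (log2 0.95).

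Among 26 genes that modify or turn over the family's proteins, there were 12 rises and 10 falls in 451Lu-R (46.2% and 38.5%, against 41.3% and 38.6% of all genes, median 0.05). In 1205Lu-R there were 3 rises and 18 falls (11.5% and 69.2%, against 40.4% and 37.8%, median -0.34). Most were small: at 2-fold 451Lu-R had 1 rise and 3 falls (22.2% and 13.3% of all genes), and 1205Lu-R 0 and 3 (22.0% and 9.8%). USP51, which encodes a deubiquitinase of ZEB1, fell 30.6-fold in 451Lu-R (from 36.5 CPM) and 8.19-fold in 1205Lu-R (from 4.24 CPM). The small phosphatase gene CTDSP1 fell 3.09-fold and 4.30-fold, and its relative CTDSPL had a 2.49-fold rise in 451Lu-R against a 3.47-fold fall in 1205Lu-R. The kinase gene ATM fell 2.66-fold in 451Lu-R, with a log2 change of 0.16 in 1205Lu-R (edgeR FDR = 0.0713). CUL1, a subunit of SCF ubiquitin ligases, fell 1.63-fold and 1.88-fold. The 3 genes that rose in 1205Lu-R, named after their values were seen, were FBXO31 (log2 0.59), PRKD1 (0.37) and SKP1 (0.11), of which PRKD1 and SKP1 lost their calls with DESeq2 (FDR = 0.116 and 0.082) and without DMSO replicate 2 of 1205Lu-R (FDR = 0.0641 and 0.0735).

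Of 27 upstream ligands, receptors and signal transducers, 451Lu-R had 17 rises and 6 falls among 26 tested (65.4% and 23.1%, against 41.3% and 38.6% of all genes, median 0.85). In 1205Lu-R 13 rises and 11 falls among 27 (48.1% and 40.7%) lay near the shares of all genes (40.4% and 37.8%, median 0.40). The ligand genes BMP2 (at least 71.2-fold), PDGFB (at least 16.8-fold) and BMP4 (at least 14.8-fold) were higher in corin-treated 451Lu-R cells, where all 3 were at 0 with DMSO and passed the filter through the corin libraries. In 1205Lu-R, PDGFB was at least 19.4-fold higher, BMP4 rose 6.23-fold and BMP2 rose 3.01-fold. The Notch ligand gene JAG1 rose 4.92-fold (50.5 to 232 CPM) and 5.47-fold (24.3 to 140 CPM). TGFB2 rose from 1 and 1 counts to 16 and 25 in 1205Lu-R and fell 2.07-fold in 451Lu-R (3.27 to 1.42 CPM), where the call was lost with DESeq2 (FDR = 0.102) and without corin replicate 2 (FDR = 0.116).

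Other EMT and neural crest factors went both ways. Of 18 tested in 451Lu-R, 7 rose and 5 fell (38.9% and 27.8%, against 41.3% and 38.6% of all genes, median 0.04). Of 20 tested in 1205Lu-R, 5 rose and 9 fell (25.0% and 45.0%, against 40.4% and 37.8%, median -0.09). SOX4 rose 2.67-fold and 9.94-fold, MSX2 rose 5.25-fold and 4.53-fold, and HMGA2, an architectural chromatin factor, fell 2.49-fold and 4.66-fold. SOX9 was at least 27.7-fold higher in 451Lu-R (0 to 8.1 CPM) and stood at 310 and 312 CPM in 1205Lu-R. The other genes that fell in 451Lu-R, named after their values were seen, were TFAP2A (log2 -1.13), YAP1 (-1.08), ETS1 (-0.83) and TEAD1 (-0.71). In 1205Lu-R HAND2 (2.91), FOXD3 (2.05) and TFAP2A (0.61) also rose, the last of them in the direction opposite to 451Lu-R. Of the 5 antisense and microRNA host genes listed, 2 passed the filter in each line (SNAI3-AS1 and ZEB1-AS1), and 1 of them rose.

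**Figure D5:**
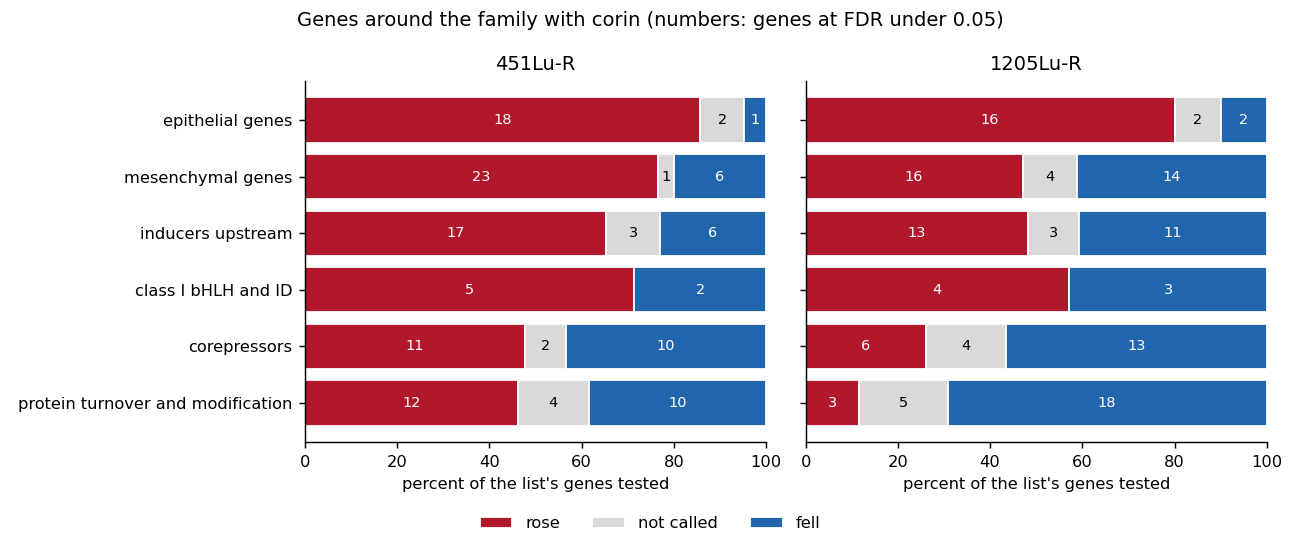
Share of the tested genes of 6 lists (x axis, percent) that rose (red), fell (blue) or were not called (grey) with corin in 451Lu-R and 1205Lu-R at an FDR under 0.05, with the numbers of genes printed in the bars. The mesenchymal genes split 23 to 6 in 451Lu-R and 16 to 14 in 1205Lu-R, and the turnover genes 12 to 10 and 3 to 18, but at 2-fold the splits were 18 to 4 and 9 to 2, and 1 to 3 and 0 to 3. At this FDR about as many of all genes rose (41.3% and 40.4%) as fell (38.6% and 37.8%). At 2-fold 22.2% and 22.0% of all genes rose, and 13.3% and 9.8% fell.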

How the data were processed

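PolyA RNA from 451Lu-R and 1205Lu-R cells was sequenced in paired-end mode. Per the labels, Trimmomatic was used for trimming, and transcript abundance came from Salmon with GENCODE v32, summed by the authors to genes. The authors deposited expected counts (estimated read counts per gene, not normalized) for 8 libraries. Their tables for the PLX4032 samples hold only the authors' own log2 fold changes and adjusted p-values, and were not used. Tool versions are not given in the sources used here.

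Identifiers were matched to GENCODE 44 (34052 of 34228 genes), which also gave exon lengths. Expected counts were rounded to whole numbers and tested with edgeR 4.0.16 in R 4.3.3 (filterByExpr, TMM, glmQLFit and glmQLFTest, 2-sided, Benjamini-Hochberg over 14530 genes in 451Lu-R, 14563 in 1205Lu-R and 16062 in the fit of all 8 libraries). The SE is the absolute log2 fold change over the root of F, and 95% intervals are normal intervals from it. They cover the fitted spread only. Groups with 3 counts or fewer in each library were treated as at the floor, and fold changes on library totals are given as bounds from 3 counts per library where all were at 0, and otherwise as ratios of summed counts with an exact Clopper-Pearson interval for counting error. Some genes passed filterByExpr through 1 side of a comparison alone, which fixed their direction. Their calls add no support where they are named or counted. CPM used the library total. Between the 2 libraries of a group the chi-square per degree of freedom was 1.34 to 1.41, where counting error alone gives about 1. They were kept as 2 samples, but this value cannot tell separate cultures from 2 libraries of 1 culture.

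The members, lists and tests were chosen with earlier results of these data known. Named from each of 8 lists (199 genes), per line, were at most the 4 genes with the largest change among those with an FDR under 0.05, a mean of at least 1 CPM and groups that did not overlap, and any gene of the bHLH, corepressor and antisense lists. A gene that this rule names is not reported here. Genes of chromosome Y were left out of the search for similar patterns, a choice made after seeing the data. Alternatives were DESeq2 1.42.0, RLE and library size scaling, other filters and thresholds, a replicate block, a joint fit of the 8 libraries, leaving out each library, transcript length and another pseudocount. The scripts were tested on simulated data.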

Additional observations from a re-analysis of the deposited data

Results flagged for a closer look

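These results stood out because the response to corin differed between the lines by edgeR's interaction test at an FDR under 0.05, as it did for 49.7% of all genes tested. Values are the log2 response in 1205Lu-R minus that in 451Lu-R. Among the members the difference was 2.95 for SNAI2, 2.29 for ZEB2, 0.31 for SNAI1, -0.94 for TWIST1 and -1.67 for ZEB1. Among the classical targets it was -0.63 for CDH2, -0.31 for VIM and -1.83 for FN1.

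Of the epithelial genes, the difference was 6.25 for ESRP1, 2.72 for F11R, 0.72 for CGN, -3.16 for CLDN4, -5.25 for LSR, -8.10 for PKP3 and -10.26 for PKP2. Of the mesenchymal genes, it was 0.78 for CCN2, -2.98 for CNN1, -3.24 for COL1A1 and -4.75 for FBN1. Values for genes at the floor in a group (PKP2, SOX9, BMP2 and BMP4 among them) depend on edgeR's prior count and are no measure of size.

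Of the TWIST partners and inhibitors, the difference was 1.53 for ID4, 0.36 for ID2, -0.46 for ID3, -0.42 for TCF3, -0.61 for TCF12 and -2.68 for TCF4. Of the corepressors, it was 0.69 for SUV39H1, -0.24 for NCOR1, -0.67 for HDAC1, -0.94 for LMO4, -1.87 for RCOR2, -1.91 for AJUBA and -1.99 for WTIP. Of the turnover genes, it was 1.86 for USP51, 1.53 for ATM, -0.24 for CUL1, -0.33 for SKP1, -0.51 for CTDSP1 and -3.15 for CTDSPL.

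Of the upstream genes, it was 5.21 for TGFB2, -5.98 for BMP4 and -9.26 for BMP2. Of the other transcription factors, it was 1.86 for SOX4, 1.70 for TFAP2A, 0.61 for TEAD1, 0.60 for ETS1, -0.55 for YAP1, -0.94 for HMGA2 and -9.55 for SOX9. Groups of 2 libraries are too small for a test of single outlying libraries. Some of these calls were lost in other settings. With DESeq2 the interaction FDR was 0.0552 for CGN (0.72) and 0.14 for CNN1 (-3.26). With library size only, edgeR gave FDR = 0.76 for NCOR1 (-0.03), 0.788 for CUL1 (-0.03) and 0.0574 for CTDSP1 (-0.30). The difference was 1.33 for USP51 without corin replicate 1 of 1205Lu-R and 1.27 for ID4 without corin replicate 2.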

How the results depend on the processing

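The counts of members called kept within 1.5 times of the reported ones under the other normalizations, filters and tests, and fell at stricter thresholds. At 4-fold and an FDR under 0.001, 3 members were called in 451Lu-R, 3 in 1205Lu-R, 2 for the interaction and 2 between the lines with corin. At 2-fold, 3 were called for the interaction. When single libraries were dropped, the called members numbered 7 to 7 in 451Lu-R, 5 to 6 in 1205Lu-R, 4 to 5 for the interaction, 7 to 7 between the lines with DMSO and 6 to 7 with corin. Under the replicate block, 7 members were called in 451Lu-R, 6 in 1205Lu-R, 5 for the interaction, and 7 between the lines with DMSO and with corin, as without it. Deviations of same-numbered libraries correlated at -0.031 (451Lu-R) and 0.018 (1205Lu-R), so the numbers gave no sign of pairing. The block changed the calls of HDAC1 in 1205Lu-R (-0.09, FDR = 0.0284) and of the interaction of CNN1 (FDR = 0.0552, edgeR).

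Of the counts over gene lists, 21 moved by more than 1.5 times, of which 19 at 2-fold. Beside those given with the lists, the upstream genes then split 11 to 3 in 451Lu-R and 8 to 3 in 1205Lu-R, the class I bHLH and ID genes had 0 falls in either line, and the other factors 3 falls in 451Lu-R. The epithelial genes had 1 fall in 1205Lu-R and the antisense genes 0 rises. With DESeq2, 1 turnover gene and 0 antisense genes rose in 1205Lu-R.

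The direction turned only for values near 0 or at low counts, and the cause was not tested. In 1205Lu-R these were TWIST1 with a library left out (-0.08 to 0.16), ZEB1, SOX9 and TEAD1 with library size only (0.03, 0.01 and 0.01), VIM with no filter (-0.02) and DESeq2 (-0.0044), and LMO4 with no filter (-0.0017) and a library left out (-0.08 to 0.15). In 451Lu-R it was PRKD1 with library size only (-0.08) and a library left out (-0.0021 to 0.03). For the interaction they were PRRX1 (-1.28 to 0.04), HAND2 (-2.16 to 1.82), PDGFB (-0.10 to 0.16), KDM1A (-0.01 to 0.11) and RCOR1 (-0.02 to 0.21) with a library left out, ID1 and HDAC2 with library size only (0.03 and 0.16) and PDGFB with DESeq2 (-0.01). TWIST1 between the lines with corin was -0.02 to 0.16 with a library left out. The ZEB1 to ZEB2 ratio in corin-treated 451Lu-R was -0.32 with the longest transcript. Library size alone shifted the median of all genes by -0.1 in 451Lu-R, 0.07 in 1205Lu-R and 0.21 for the interaction, and DESeq2, which tests more low genes, by 0.18 and 0.26 in the lines.

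With 2 libraries per group of 1 line each, the tests speak of these libraries. Counts under about 10, as for CDH1, SNAI3 with DMSO and PRRX1 with corin in 451Lu-R, limit precision.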
